A study of Danio rerio with 10 samples.

Results

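Genes of mitochondrial protein import and quality control were examined in the dorsal skeletal muscle of adult AB zebrafish. They were taken by a rule on gene names that covers the subunits of the TOM, SAM, TIM22 and TIM23 import machineries, the CHCH proteins, the processing peptidase, the matrix and inner membrane proteases, the prohibitins, and the proteins of mitochondrial fusion and fission. The names took 57 of the 17373 gene IDs in the torpor table. Of these, 35 are one-to-one with a human gene and were read in all 3 deposited tables, which share 9411 such genes. The other 22 are not one-to-one with a human gene. They are called copies below and were read in the torpor table only. All 57 IDs had an entry in the gene name reference.

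Poly A RNA was sequenced from 10 fish in 4 groups. The torpor+radiation group (3 fish) and the torpor group (2 fish) were kept at 18.5 °C with 24 µM melatonin, the hormone of the night phase, and the radiation group (3 fish) and the control group (2 fish) at 28.5 °C without melatonin. Both irradiated groups had received 32.64 cGy in all by the labels, from a caesium source according to the methods. Cold and melatonin were given together, so their parts cannot be told apart. The letters that open the fish codes are not explained. They are F in all control and radiation fish, M in both torpor fish, and M in 2 and F in 1 of the torpor+radiation fish. What they stand for cannot be told apart from torpor between the control and torpor groups. It also goes in part with torpor between the radiation and torpor+radiation groups. All fish values reach the tables as a baseMean, which is the mean over the 10 fish of counts divided by size factors, with a fold change and its standard error, so that no value per fish and no library size can be given. Group means below are means of normalized counts recovered from these columns, without an SD of their own, and the error of each difference is the standard error (SE) of its log2 fold change.

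Nearly all mitochondrial proteins are made in the cytosol and imported. The TOM complex is the gate of the outer membrane, the SAM complex inserts barrel proteins there, small TIM chaperones carry hydrophobic precursors across the intermembrane space, the TIM22 complex inserts carriers into the inner membrane, and the TIM23 complex with its motor threads precursors into the matrix, where a peptidase removes their targeting sequences. Proteases and prohibitins then remove or scaffold faulty proteins, and fusion and fission sort damaged parts of the network, which in muscle fibres lies between the myofibrils and under the cell membrane.

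The tissue label was checked first. Fast muscle markers were abundant, with a summed baseMean of 1.03e+06 over the 12 gene IDs that the 14 listed names matched, while 9 found of 13 liver markers summed to 44.7, although 1 protocol text of the labels speaks of liver. In torpor against control 4 fast muscle markers were called lower and 1 higher by the deposited DESeq2 Wald test, with log2 fold changes of -0.86 for ckmb, -0.91 for ckma, -1.25 for actn3b, -1.44 for actn3a and 1.24 for atp2a1. Marker sums of some other cell types differed between the groups too. The 8 oocyte markers with 1 orthologue summed to 17.3 normalized counts in torpor, 6.88 in torpor+radiation, 17.2 in radiation and 509 in control, and 6 of the 12 oocyte markers found were called lower in torpor against control. The 6 testis markers with 1 orthologue summed to 162 in torpor, 146 in torpor+radiation, 13.8 in radiation and 17.0 in control. Most of this sum was spata4 at 142, 121, 7.70 and 5.56 in that order of groups, while tssk6 was at 0 in all fish and odf3b was under 1 in every group. Of the 8 testis markers found, spata4 alone was called in torpor against control. Slow muscle markers summed to 6435 in torpor, 5778 in torpor+radiation, 10941 in radiation and 12829 in control over 2 genes. Most of that sum was myl10, which was called lower in torpor against control (log2 -1.02, SE 0.34). The other gene, tnnt1, was not called (log2 -0.35, SE 0.50). Leukocyte markers summed to 134, 212, 361 and 208 in the same order over 6 genes. No leukocyte, erythrocyte or endothelium marker was called in torpor against control. The part of these fibre and cell types in the results was not tested, and in bulk tissue fewer cells of a type and less RNA per cell cannot be told apart.

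The first question was whether import and quality control genes differed between torpid and control muscle. By the deposited Wald test of DESeq2, with Benjamini-Hochberg adjusted p of 0.1 or less taken as called, 13 of 35 members (37.1%) rose in torpor and 0 fell, against 6.63% of 7069 genes called higher and 3.83% called lower. Fold changes of the 13 members ran from 0.89 to 2.05 on the log2 scale. Those of the other 22 ran from -0.65 to 0.95. The median over the 34 members with a baseMean of at least 10 was 0.74, and that over all 6504 genes of such level was 0.05. The members called were small TIM chaperones, CHCH proteins, subunits of the TIM23 channel and its motor, of TOM and SAM, the protease clpp and the prohibitin phb. No fusion or fission gene was among them, but only 3 such genes were members. The median gene with a baseMean of at least 50 itself lay at 0.10. Relative to it 11 of the 13 members were called, without mtx2 and tomm22, beside 10.1% of all genes in either direction. When only genes with a baseMean of at least 50 were tested, 12 members were called, all higher. The share over all such genes was then 17.5% in either direction. If the Wald statistic is instead referred to a t distribution with 6 degrees of freedom, which allows for the 10 fish, 0 members and 0% of all genes were called, while 13 members and 11.7% of all genes had an unadjusted p under 0.05.

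**Figure D1:**
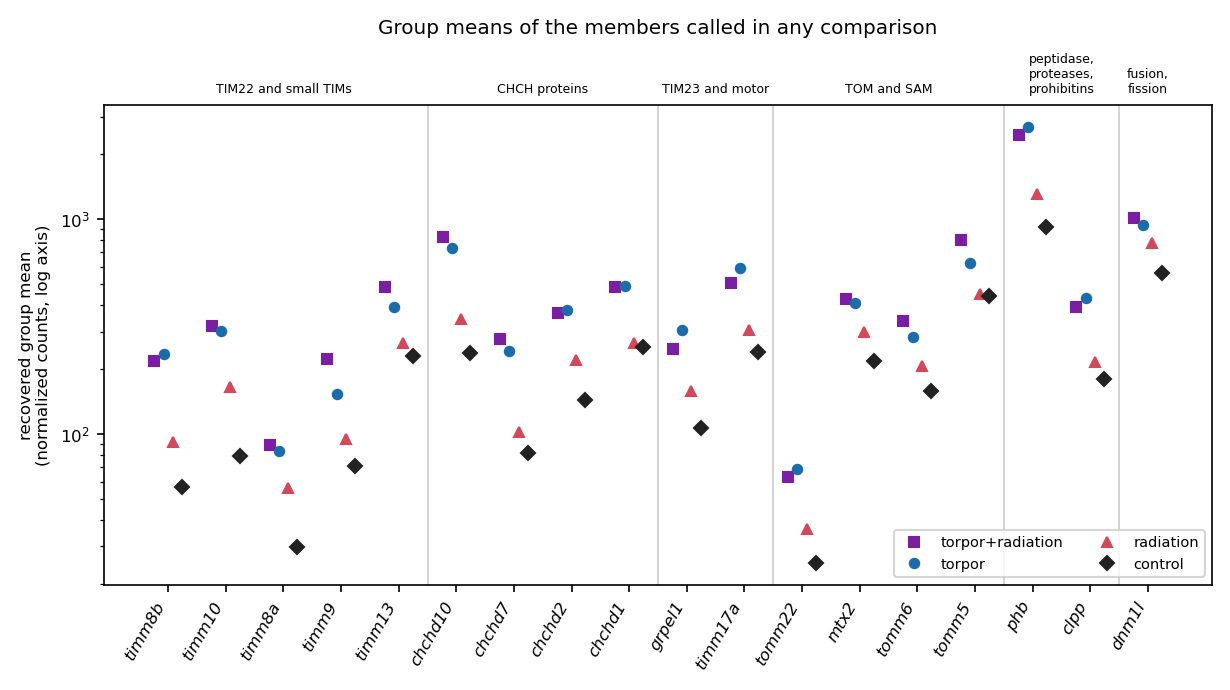
Recovered group means, in normalized counts on a log axis, of the 18 members called in at least 1 of the 6 comparisons, ordered by role. Squares are torpor+radiation, circles torpor, triangles radiation and diamonds control, and no error bar is drawn because no value per fish was used. For every gene shown, both torpor means lie above the radiation and the control mean. All calls were higher calls in a torpor comparison, so this position is in large part set by the choice of genes and is no separate result.

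In the group of TIM22 and small TIM chaperones 4 of 6 members (66.7%) rose in torpor, beside 6.63% of all genes called higher. timm8b and timm10 had the largest fold changes of the 35 members. timm8b (ENSDARG00000055708), a chaperone that works with timm13, had a mean of 236 normalized counts in torpor, 218 in torpor+radiation, 91.9 in radiation and 57.0 in control. It rose 4.15-fold in torpor (log2 2.05, SE 0.60, adjusted p 0.0137, DESeq2 Wald test). timm10 (ENSDARG00000069116), which pairs with timm9 to carry the precursors of inner membrane carriers, stood at 303 in torpor, 318 in torpor+radiation, 166 in radiation and 78.8 in control. In both chaperones the torpor means lay above the radiation mean, and the radiation mean above the control mean. A control mean below every treated mean was not particular to them, since 29 of the 35 members had it. The same count over all genes was not made, and all such differences rest on the same control fish. Neither chaperone was called in radiation against control. The torpor rise of timm10 was 3.84-fold (log2 1.94, SE 0.55, adjusted p 0.0113, DESeq2 Wald test).

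timm8a, a relative of timm8b whose human counterpart is mutated in a deafness-dystonia syndrome, rose to 83.6 in torpor, with 89.3 in torpor+radiation, 56.0 in radiation and 30.0 in control (log2 1.48, SE 0.51, adjusted p 0.0478 for torpor, DESeq2 Wald test). timm9 averaged 153 in torpor, 224 in torpor+radiation, 94.6 in radiation and 71.3 in control. It was called higher in torpor (log2 1.102, SE 0.38, adjusted p 0.0501, DESeq2 Wald test), and its torpor+radiation mean was the highest of the 4. timm13, the partner of the timm8 proteins, was not called in torpor (log2 0.75, SE 0.41, adjusted p 0.294, DESeq2 Wald test), with means of 389 in torpor, 486 in torpor+radiation, 265 in radiation and 232 in control. timm29, a TIM22 subunit in human cells and no chaperone, had 116, 130, 139 and 113 in the same order of groups, and a log2 fold change of 0.04 (SE 0.39) in torpor.

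Many CHCH proteins, though not all, are small proteins of the intermembrane space held by paired cysteines, which the import oxidase folds after entry. Of the 4 with 1 orthologue, 3 rose in torpor, beside 6.63% of all genes called higher. The copies chchd4a and chchd4b are given with the other copies below, and chchd4b alone of the CHCH copies was called. In torpor against control chchd3a had a log2 fold change of 0.17 (SE 0.31) at a baseMean of 1670. chchd6b had 0.27 (SE 0.39) at a baseMean of 699, and chchd6a 0.44 (SE 0.27) at 186. chchd3b had 2.099 (SE 1.09) at a baseMean of 14.9. The 3 rises therefore do not describe the CHCH genes as a class. chchd10 (ENSDARG00000010717), whose human counterpart is mutated in motor neuron disease and myopathy, had 732 normalized counts in torpor, 828 in torpor+radiation, 343 in radiation and 238 in control (log2 1.62, SE 0.50, adjusted p 0.0223 for torpor, DESeq2 Wald test). Its close relative chchd2 had 376 in torpor, 364 in torpor+radiation, 222 in radiation and 144 in control (log2 1.38, SE 0.41, adjusted p 0.0178, DESeq2 Wald test). chchd7 (ENSDARG00000068156), a CHCH protein of less well known role, had 243 in torpor, 276 in torpor+radiation, 103 in radiation and 81.3 in control (log2 1.58, SE 0.42, adjusted p 0.0064, DESeq2 Wald test). The 3 genes thus had torpor and torpor+radiation means close to each other and above those of both warm groups. chchd2 was not called in torpor+radiation against radiation (log2 0.72, SE 0.34). chchd1, a mitochondrial ribosome protein, missed the threshold in torpor at an adjusted p of 0.160 by the DESeq2 Wald test (log2 0.95, SE 0.42), with means of 488 in torpor, 481 in torpor+radiation, 266 in radiation and 253 in control.

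In the TIM23 complex and its motor, 2 of 7 members (28.6%) rose in torpor, beside 6.63% of all genes called higher. A count of 2 in so small a group is not read as a result about it. grpel1, the nucleotide exchange factor of the motor's Hsp70, averaged 304 in torpor, 249 in torpor+radiation, 158 in radiation and 106 in control (log2 1.52, SE 0.46, adjusted p 0.0182, DESeq2 Wald test). timm17a, a subunit of the channel, averaged 593 in torpor, 504 in torpor+radiation, 306 in radiation and 240 in control (log2 1.31, SE 0.42, adjusted p 0.0308, DESeq2 Wald test). Its paralogue timm17b had 51.3, 33.6, 58.5 and 49.5 in the same order, a log2 fold change of 0.05 (SE 0.53) in torpor. The difference between these paralogues was not tested. timm44, which tethers the motor to the channel, had a log2 fold change of 0.67 (SE 0.35) and timm50, the receptor of the complex, 0.45 (SE 0.52), and neither was called. pam16, a regulator of the motor's Hsp70, was at -0.53 (SE 0.47), with 158 in torpor, 208 in torpor+radiation, 280 in radiation and 229 in control. grpel2, the other exchange factor, was at 0.65 (SE 0.36) and was not called.

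Of 8 members of TOM and SAM, 2 (25%) rose in torpor, beside 6.63% of all genes called higher, and so low a count is not read as a result about the group. tomm22, the central receptor that holds the TOM complex together, averaged 68.8 in torpor, 63.4 in torpor+radiation, 36.2 in radiation and 25.2 in control (log2 1.45, SE 0.54, adjusted p 0.0768, DESeq2 Wald test). mtx2, a metaxin that serves the SAM complex, averaged 407 in torpor, 425 in torpor+radiation, 298 in radiation and 219 in control (log2 0.89, SE 0.34, adjusted p 0.0897, DESeq2 Wald test). The receptors that first meet precursors were not called. tomm20b, which recognizes targeting sequences, had 963 in torpor, 1045 in torpor+radiation, 952 in radiation and 785 in control (log2 0.29, SE 0.29). tomm70a, the receptor of carrier precursors, had 347 in torpor, 191 in torpor+radiation, 357 in radiation and 306 in control (log2 0.18, SE 0.46). The small subunits tomm5 and tomm6 had log2 fold changes of 0.52 (SE 0.28) and 0.83 (SE 0.45), and mtx3, a further metaxin, had -0.65 (SE 0.51). The gene named tomm20a (ENSDARG00000090656) was listed at a baseMean of 6.83, under the minimum of 10, and is paired in the tables with the human gene ARID4B, so its identity is uncertain.

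Among the processing peptidase, proteases and prohibitins, 2 of 6 members (33.3%) rose in torpor, beside 6.63% of all genes called higher. This count too is not read as a result about the group. phb (ENSDARG00000057414), a subunit of the inner membrane prohibitin ring, averaged 2681 in torpor, 2472 in torpor+radiation, 1303 in radiation and 918 in control. It had the lowest adjusted p of the 35 members (log2 1.55, SE 0.36, adjusted p 0.000999, DESeq2 Wald test). clpp, the proteolytic core of a matrix protease, averaged 427 in torpor, 391 in torpor+radiation, 217 in radiation and 181 in control (log2 1.24, SE 0.40, adjusted p 0.0334, DESeq2 Wald test). lonp1, the other main matrix protease, was at 0.03 (SE 0.44), with 136, 149, 186 and 134 in the same order. The 2 matrix proteases thus had unlike values, a difference that was not tested. The inner membrane protease afg3l2 was at 0.40 (SE 0.27), and the 2 subunits of the processing peptidase, pmpca and pmpcb, were at 0.21 (SE 0.41) and 0.46 (SE 0.42), and none of the 3 was called.

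None of the 3 fusion and fission genes with 1 orthologue was called in torpor, and 1, dnm1l, had an unadjusted p under 0.05. Over all genes 6.63% were called higher and 3.83% lower, so 0 calls among 3 genes is no result about this group. mfn2, the outer membrane fusion protein, had 2172 in torpor, 2153 in torpor+radiation, 2043 in radiation and 2626 in control (log2 -0.27, SE 0.38). opa1, the inner membrane fusion protein, had 1473, 1434, 1602 and 1526 in that order (log2 -0.05, SE 0.29), a 95% interval from -0.62 to 0.52. dnm1l, the fission enzyme, had 942, 1016, 776 and 563 (log2 0.74, SE 0.37, adjusted p 0.228, DESeq2 Wald test). timmdc1, which carries a TIM-like name but assembles respiratory complex I, was not called (log2 0.95, SE 0.41, adjusted p 0.145, DESeq2 Wald test).

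**Figure D2:**
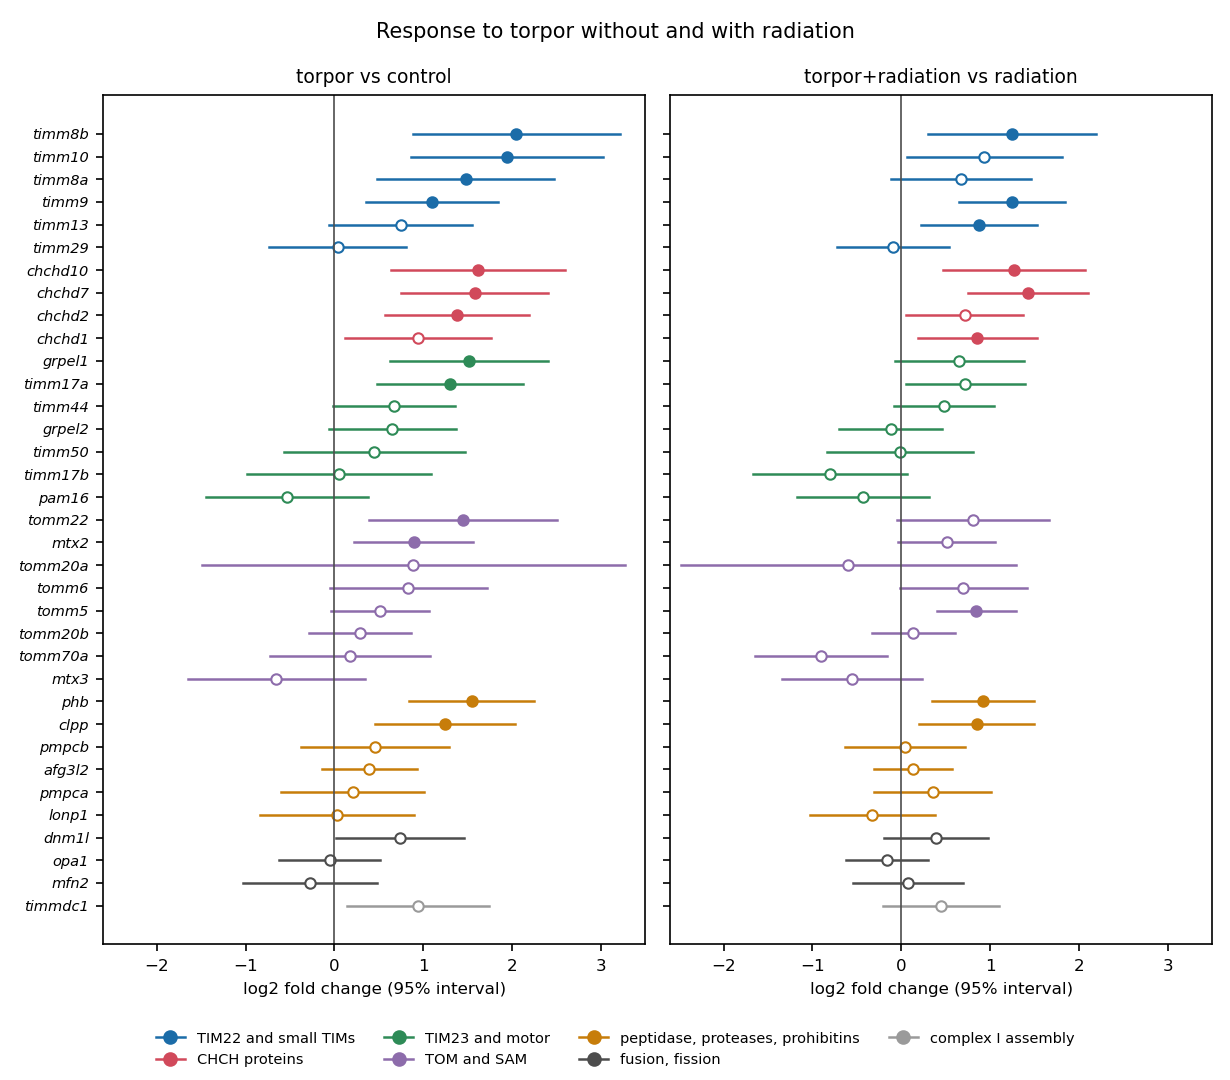
Log2 fold change with its 95% interval for each of the 35 members, torpor against control on the left and torpor+radiation against radiation on the right, grouped by role. Filled points are called at an adjusted p of 0.1 or less; 13 are filled on the left and 9 on the right, and all filled points lie above 0.

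The next question was whether the same was seen in torpid fish that were irradiated. Against the same 2 control fish, 17 of 35 members (48.6%) rose in torpor+radiation and 0 fell, beside 9.09% of 6908 genes called higher and 6.43% called lower (deposited DESeq2 Wald test, adjusted p of 0.1 or less). The 17 held all 13 that were called in torpor, but both comparisons use the same control fish and are not independent. The 4 others were tomm5 (log2 0.87, SE 0.26, adjusted p 0.0114), timm13 (log2 1.07, SE 0.37, adjusted p 0.0433), tomm6 (log2 1.08, SE 0.41, adjusted p 0.0684) and dnm1l (log2 0.85, SE 0.34, adjusted p 0.0790), all by the DESeq2 Wald test. tomm5 averaged 803 in torpor+radiation and 438 in control, and tomm6 averaged 336 in torpor+radiation and 159 in control. Values of the 17 ran from 0.85 to 2.01. The median of the members was 0.86, against 0.09 over all genes and 0.15 for the median gene with a baseMean of at least 50. Relative to that median gene 12 of the 17 were called, beside 14% of all genes in either direction, and timm17a, tomm22, timm13, tomm6 and dnm1l were not. When only genes with a baseMean of at least 50 were tested, 17 members were called, beside 23.2% of all such genes in either direction. With the t distribution 0 members and 0% of all genes were called, while 17 members and 14.8% of all genes had an unadjusted p under 0.05.

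A comparison that uses no control fish is torpor+radiation against radiation, for which the Wald test was derived from the recovered group means and dispersions. Such a test is named a derived DESeq2 Wald test below, although DESeq2 itself was not run for it. In torpor+radiation against radiation 9 of 34 members (26.5%) rose and 0 fell, beside 9.15% of 6504 genes called higher and 6.98% called lower (adjusted p of 0.1 or less over these genes). The 9 were timm8b, timm9, timm13, chchd1, chchd7, chchd10, tomm5, clpp and phb. Their log2 fold changes ran from 0.85 to 1.43. The largest was that of chchd7, with means of 276 in torpor+radiation and 103 in radiation (log2 1.43, SE 0.34, adjusted p 0.00099, derived DESeq2 Wald test). timm9 followed chchd10 and timm8b in size but had the lowest adjusted p after chchd7, with means of 224 in torpor+radiation and 94.6 in radiation (log2 1.25, SE 0.31, adjusted p 0.0014, derived DESeq2 Wald test). tomm5 had 803 in torpor+radiation and 446 in radiation (log2 0.85, SE 0.23, adjusted p 0.0045, derived DESeq2 Wald test). phb had 2472 in torpor+radiation and 1303 in radiation (log2 0.92, SE 0.29, adjusted p 0.0204, derived DESeq2 Wald test). At a threshold of 0.05 the count was 5 of 34, beside 11.6% of all genes in either direction. When only genes with a baseMean of at least 50 were tested, 10 members were called, 9 higher and 1 lower. The share over all such genes was then 22.8% in either direction. With the t distribution 0 members and 0.0461% of all genes were called, while 9 members and 15.5% of all genes had an unadjusted p under 0.05.

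Torpor against control and torpor+radiation against radiation have no fish in common. The letters of the fish codes go with torpor fully in the first and in part in the second, and their part in either was not tested. All 13 members called in the first were above 0 in the second, where 6 of them were called and 9 had an unadjusted p under 0.05 by the derived Wald test. The 6 were timm8b, timm9, chchd7, chchd10, clpp and phb. Over all 34 members, 25 were above 0 in the second comparison, beside 3500 of all 6504 genes. The same overlap among all genes called in the first comparison was not counted, so these counts cannot be read as particular to the members. In the irradiated pair the values were smaller for most of the 13, with timm10 at 0.94 (SE 0.45), timm8a at 0.67 (SE 0.40), grpel1 at 0.65 (SE 0.37), timm17a at 0.72 (SE 0.34), chchd2 at 0.72 (SE 0.34), tomm22 at 0.81 (SE 0.43) and mtx2 at 0.51 (SE 0.28), none of them called. The 13 were taken by their calls in torpor against control, and such a choice by itself favours larger values there. For no member was the difference between these comparisons called. Across the 34 members the 2 sets of log2 fold changes had a Pearson r of 0.84 and a Spearman rho of 0.87, against a Pearson r of 0.57 across all 6504 genes. This describes genes measured in the same libraries, which are not independent replicates. The members and all genes were not matched for baseMean, and the difference between their values of r was not tested. Across the members the torpor fold change had a Pearson r of -0.04 with log2 baseMean.

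**Figure D3:**
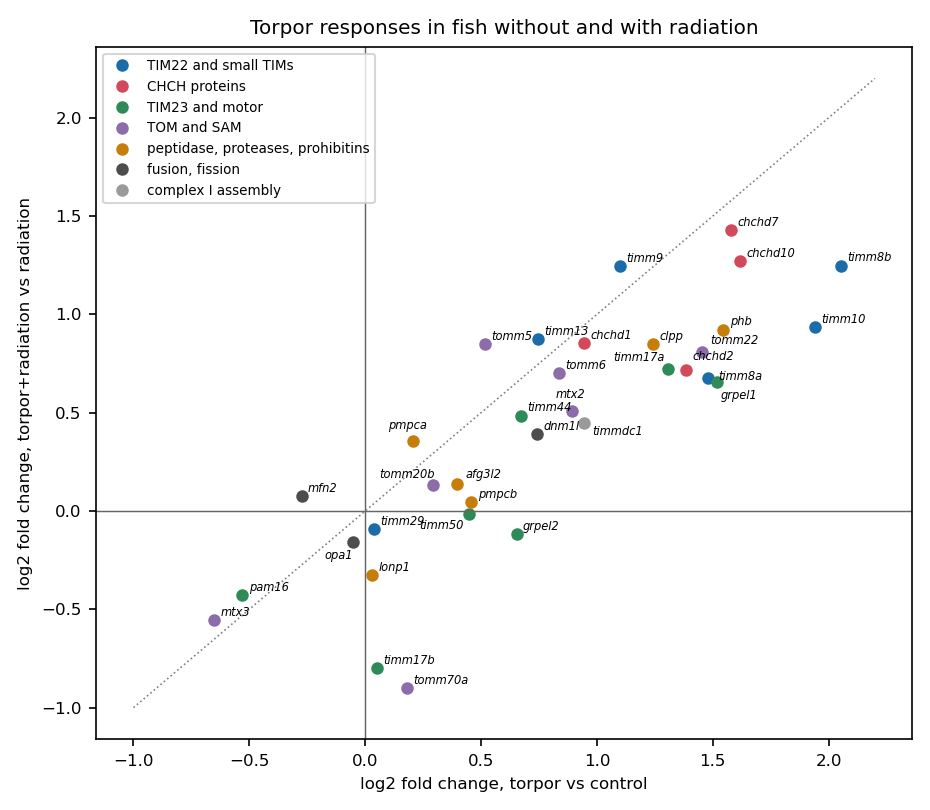
Log2 fold change of torpor against control on the x axis and of torpor+radiation against radiation on the y axis for the 34 members with a baseMean of at least 10, coloured by role, with the line of equal values dotted. Small TIM chaperones, CHCH proteins, phb and clpp lie at the upper right, 24 members are above 0 on both axes and 3 (mtx3, pam16 and opa1) are below 0 on both.

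tomm70a had the lowest log2 fold change of the members in torpor+radiation, both against radiation and against torpor. Its mean was 191 in torpor+radiation, against 347 in torpor, 357 in radiation and 306 in control, so that this group was lowest. Against radiation the log2 fold change was -0.90 (SE 0.38), with an adjusted p of 0.104 by the derived DESeq2 Wald test, just outside the threshold. It was called relative to the median gene, and also when only genes with a baseMean of at least 50 were tested, so this value depends on the setting. Against torpor the log2 fold change was -0.86 (SE 0.42), with an unadjusted p of 0.0419 and an adjusted p of 0.9997 by the derived DESeq2 Wald test. tomm70a was chosen for description after its values were seen. A lowest mean in torpor+radiation was not particular to it. timm17b had 33.6 in torpor+radiation, against 51.3 in torpor, 58.5 in radiation and 49.5 in control. Its log2 fold change was -0.80 (SE 0.44) against radiation and -0.61 (SE 0.49) against torpor, neither called.

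The last question was the response to radiation. Against control, 0 of 35 members were called in radiation at the adjusted p of 0.4 that was used for this comparison, beside 1.96% of 7616 genes in either direction (deposited DESeq2 Wald test). At an unadjusted p under 0.05, 1 member passed, beside 5% of all genes. It was timm10, with 166 normalized counts in radiation and 78.8 in control (log2 1.08, SE 0.51, unadjusted p 0.0341, adjusted p 0.685, DESeq2 Wald test). timm8a was next, with 56.0 in radiation and 30.0 in control (log2 0.90, SE 0.47, adjusted p 0.821, DESeq2 Wald test). The members leaned to one side all the same. Of 34 with a baseMean of at least 10, 33 had a radiation mean above the control mean, beside 3620 of all 6504 genes of such level. The exception was mfn2 at -0.36 (SE 0.35). The median was 0.35, against 0.05 over all genes and 0.11 for the median gene with a baseMean of at least 50. Relative to that median gene 29 of the 34 were above 0, beside 2839 of the 6504 genes. All of these values rest on the same 2 control fish, in which the oocyte markers were highest, and no member passed the test by itself.

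In fish at 18.5 °C with melatonin, torpor+radiation was set against torpor, which again uses no control fish. By the derived Wald test 0 of 34 members were called, beside 0.215% of 6504 genes in either direction, and 1 member, tomm70a, had an unadjusted p under 0.05, beside 4.18% of all genes. Here 18 of the 34 members were above 0 and 16 below, beside 3299 above and 3205 below of the 6504 genes. The median was 0.04, against 0.01 over all genes. phb had a log2 fold change of -0.12 with a 95% interval from -0.76 to 0.53, and timm10 one of 0.07 with an interval from -0.90 to 1.04. In torpor against control the values were 1.55 for phb (95% interval from 0.84 to 2.25) and 1.94 for timm10 (from 0.86 to 3.02). Both comparisons use the torpor fish, and the difference between them was not tested. timm9 had the highest value of the members, 0.55 (SE 0.34), which was not called.

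Whether radiation acted differently in torpor was tested by the radiation by torpor interaction, the torpor+radiation over torpor change minus the radiation over control change. No member was called (0 of 34, beside 0.461% of 6504 genes), and 0 members had an unadjusted p under 0.05, beside 4.87% of all genes, by the derived DESeq2 Wald test. The median interaction was -0.35, against -0.02 over all genes. Below 0 were 27 of the 34 members, beside 3354 of the 6504 genes. The radiation over control change is part of this value, so the lean of the members in that comparison enters it. tomm70a had the lowest value at -1.08 (SE 0.60, adjusted p 0.9991, derived DESeq2 Wald test), followed by timm10 at -1.005 (SE 0.71). Across the members the radiation responses at 28.5 °C and in torpor, which share no fish, had a Pearson r of 0.02.

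**Figure D4:**
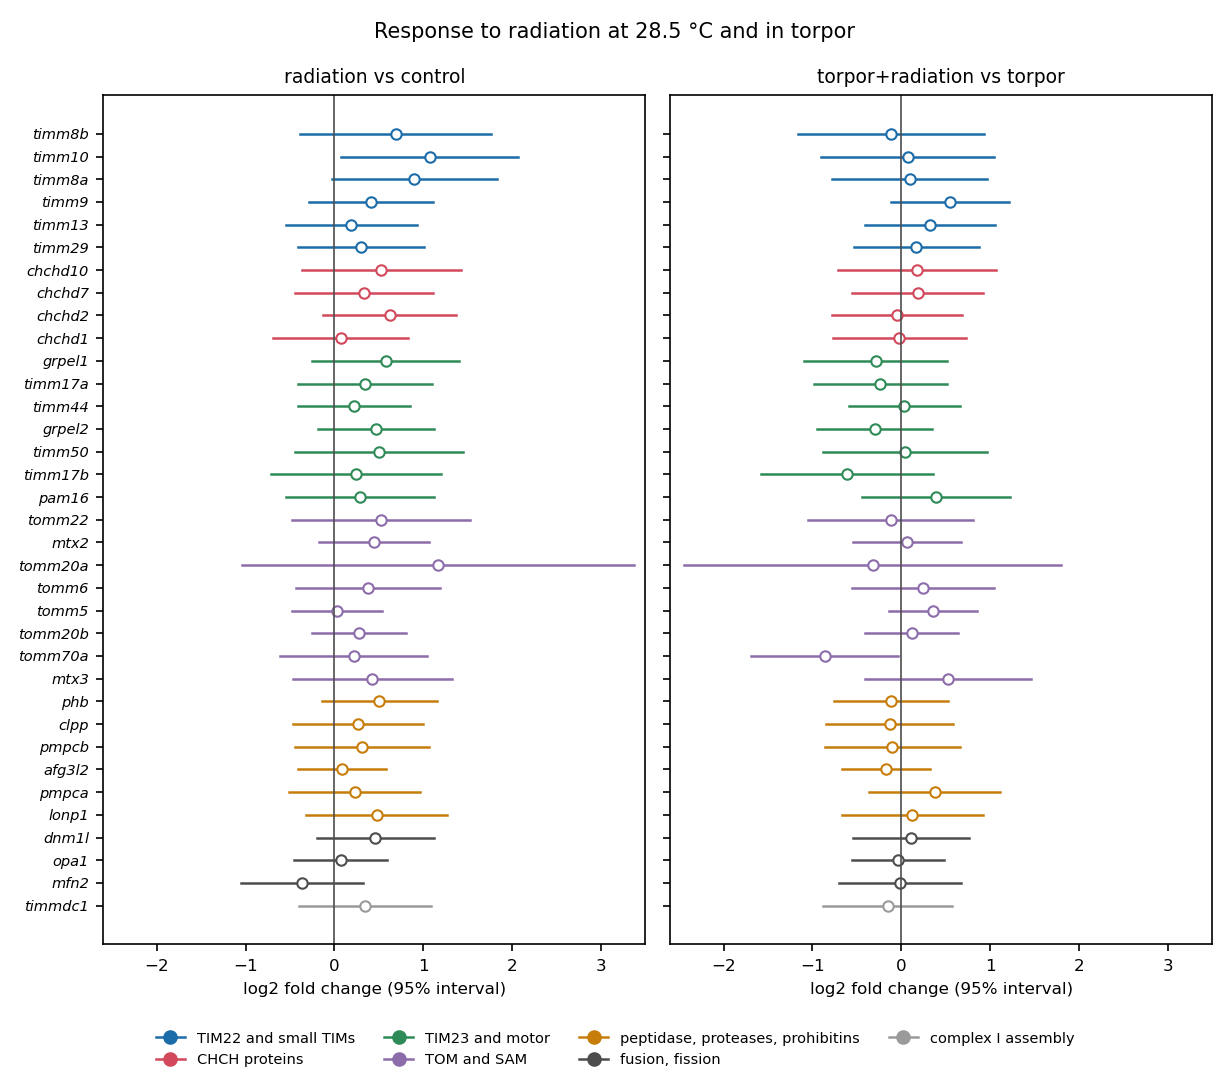
Log2 fold change with its 95% interval for each of the 35 members, radiation against control on the left and torpor+radiation against torpor on the right, in the same order and colours by role. No point is filled, since no member was called in either comparison; on the left nearly all points lie above 0, on the right they lie on both sides.

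The 22 copies were read in the torpor table only. Reads of near-identical copies can be split between them or dropped, so each value is uncertain. By the deposited DESeq2 Wald test 6 copies rose in torpor and 1 fell, beside 5.36% of 4460 genes with copies called higher and 6.39% called lower. The median of the 20 with a baseMean of at least 10 was 0.70 and that of all genes with copies was -0.11. When only genes with a baseMean of at least 50 were tested, 7 copies were called, beside 20.6% of all such genes with copies in either direction. With the t distribution 0 copies and 0% of all genes with copies were called, while 7 copies and 12.9% of all genes with copies had an unadjusted p under 0.05.

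The copies of the other prohibitin subunit moved in opposite directions. phb2a (ENSDARG00000045297) rose 4.95-fold in torpor against control (log2 2.31, SE 0.38, adjusted p 3.09e-07, DESeq2 Wald test) at a baseMean of 855. phb2b (ENSDARG00000017728) fell in torpor against control (log2 -2.26, SE 0.62, adjusted p 0.0077, DESeq2 Wald test) at a baseMean of 114. The difference of phb2a minus phb2b was 4.57, with a 95% interval from 3.15 to 5.98 that treats the copies as independent. phb2 pairs with phb in the prohibitin ring, and phb had a log2 fold change of 1.55 in the same comparison.

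In import, chchd4b, a copy of the gene for the import receptor that folds CHCH proteins and small TIM chaperones, rose 5.75-fold in torpor against control (log2 2.52, SE 0.58, adjusted p 0.00092, DESeq2 Wald test). Its paired copy chchd4a was listed at a baseMean of 7.62 and was not called. tomm40l, a copy of the gene for the TOM pore, rose 5.44-fold (log2 2.44, SE 0.67, adjusted p 0.0074, DESeq2 Wald test), while tomm40 was at 0.88 (SE 0.38, adjusted p 0.144, DESeq2 Wald test) and was not called. The difference of tomm40 minus tomm40l was -1.57, with an interval from -3.07 to -0.07. timm10b, a TIM22-bound small TIM, rose with a log2 fold change of 1.59 (SE 0.58, adjusted p 0.0661, DESeq2 Wald test), mtx1b, a metaxin, with 1.49 (SE 0.58, adjusted p 0.0983, DESeq2 Wald test), and timm23a, the TIM23 channel subunit, with 0.67 (SE 0.26, adjusted p 0.0904, DESeq2 Wald test).

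For SAM, samm50, the gene of the barrel insertase, was at 0.80 (SE 0.47) and samm50l at -0.46 (SE 0.30), neither called, and samm50 minus samm50l was 1.26 with an interval from 0.16 to 2.35. Of the 10 pairs of copies, the interval of the difference left out 0 in those 3 and included it in the other 7. The copies of clpx, the unfolding partner of clpp, had close values, 0.72 (SE 0.32) for clpxa and 0.76 (SE 0.36) for clpxb, and an interval of their difference from -0.99 to 0.91. The copies of yme1l1, an inner membrane protease, were at -0.47 (SE 0.37) for yme1l1a and 0.45 (SE 0.30) for yme1l1b. mfn1b, a fusion protein, was at 0.37 (SE 0.30) and was not called.

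**Figure D5:**
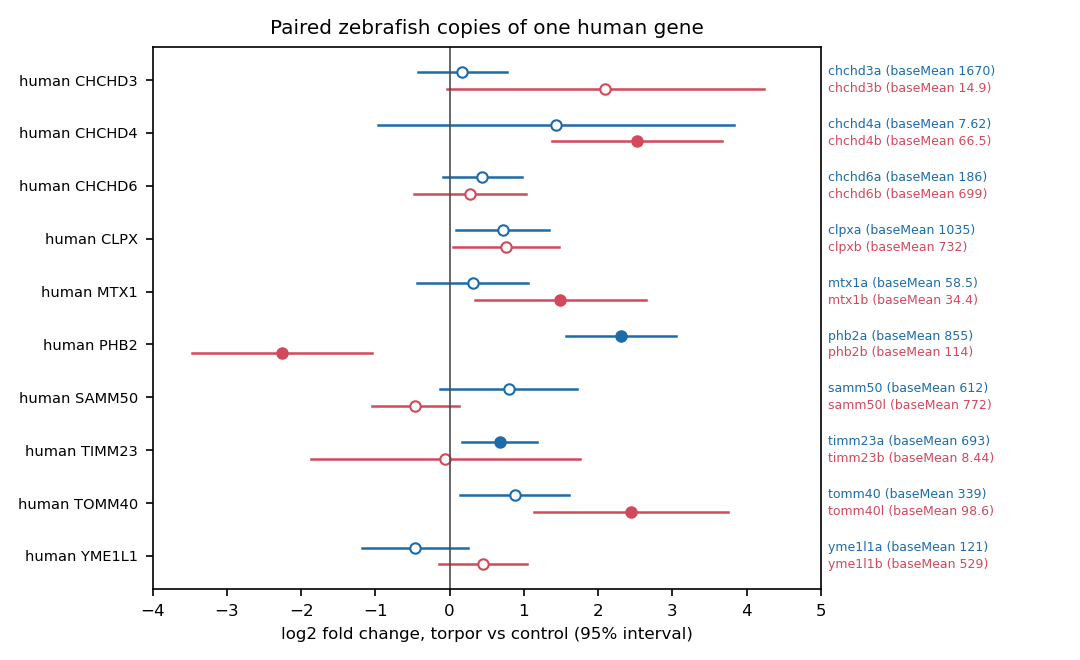
Log2 fold change with its 95% interval in torpor against control for the 10 pairs of zebrafish copies, 1 row per human gene, with the baseMean of each copy at the right. Filled points are called at an adjusted p of 0.1 or less; the copies of PHB2 lie on opposite sides of 0, at 2.31 and -2.26.

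Other genes of the same pathway, from a separate list of partners, were read in the same way. Of 29 with 1 orthologue, 4 rose and 0 fell in torpor against control, beside the 6.63% and 3.83% over all genes (deposited DESeq2 Wald test). They were hspd1, the matrix chaperonin (log2 1.69, SE 0.62, adjusted p 0.0731), stoml2, a scaffold protein related to prohibitins (log2 1.43, SE 0.46, adjusted p 0.0324), xpnpep3, whose yeast counterpart trims imported proteins (log2 1.08, SE 0.38, adjusted p 0.0530), and fundc1, a receptor of mitophagy (log2 1.04, SE 0.34, adjusted p 0.0332), all by the DESeq2 Wald test. In torpor+radiation against control 8 rose (27.6%) and 1 fell (3.45%), beside 9.09% of all genes called higher and 6.43% called lower, the gene that fell being mief2, a fission adaptor, at -0.91 (SE 0.37, adjusted p 0.0950, DESeq2 Wald test). In torpor+radiation against radiation 2 rose and 2 fell, 6.90% in each direction, which is at or below the 9.15% of all genes called higher and the 6.98% called lower, so the count is no result about the partners. gfer, the oxidase that recharges the import receptor for CHCH proteins, rose to 57.0 normalized counts in torpor+radiation, against 19.0 in radiation (log2 1.59, SE 0.50, adjusted p 0.0189, derived DESeq2 Wald test), and fundc1 rose to 353, against 208 (log2 0.76, SE 0.27, adjusted p 0.0470, derived DESeq2 Wald test). romo1, a TIM23-associated subunit, fell to 1674 in torpor+radiation, against 2803 in radiation (log2 -0.74, SE 0.20, adjusted p 0.0050, derived DESeq2 Wald test), and prkn, the ubiquitin ligase of mitophagy, fell to 50.9, against 97.5 (log2 -0.94, SE 0.36, adjusted p 0.0715, derived DESeq2 Wald test). hspa9, the Hsp70 of the import motor, was at 0.77 (SE 0.40, adjusted p 0.256, DESeq2 Wald test) in torpor against control, and pink1, which marks depolarized mitochondria, was at 0.03 (SE 0.40). In radiation against control, in torpor+radiation against torpor and in the interaction, 0 of the 29 were called, beside 1.96%, 0.215% and 0.461% of all genes. An unadjusted p under 0.05 was found for 1, 0 and 0 of them, beside 5%, 4.18% and 4.87% of all genes. These counts are no result about the partners either.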

How the data were processed

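Poly A RNA of the dorsal muscle, mainly fast fibres, of 10 adult zebrafish was sequenced as forward stranded paired reads. The authors used FastQC and STAR with the GRCz11 genome, HTSeq for counting and DESeq2 for the fit, and the submitters' processing notes also list cutadapt; versions were not given in the sources used here. The deposited signal is the baseMean, an average over the 10 fish of size-factor normalized counts. Deposited on the log2 scale are the fold change of each treated group over control and its standard error, and the score that the authors give is the Wald statistic, their quotient. The deposited p-value refers this statistic to a normal distribution, and a Benjamini-Hochberg adjusted value stands beside it. These comparison columns are the only values in the 3 tables. Fold changes against control and adjusted p-values are therefore the authors' own fit, read for the members, while every other comparison was derived from it. The depth of each library is unknown here.

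Rows were counted once per gene ID, and genes with 1 human orthologue were kept apart from copies. Group means were recovered from baseMean, the 3 fold changes and the group sizes, and a dispersion per gene from the 3 standard errors under a negative binomial variance. Recalculated standard errors were 0.996, 1.005 and 0.999 times the deposited ones (medians for radiation, torpor and torpor+radiation). From these, Wald tests were derived for torpor+radiation against radiation, torpor+radiation against torpor and the interaction, with Benjamini-Hochberg adjustment across the 6504 genes whose baseMean was 10 or more. The scripts were tested on simulated data. Called means an adjusted p of 0.4 or less for radiation against control and 0.1 or less elsewhere. Intervals are 95% Wald intervals. The p-values rest on a dispersion per gene from the fit of all 4 groups. The spread between the fish of each compared group was not observed, because no value per fish was available.

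Named genes were every member called in any of the 6 comparisons, the member with the highest baseMean in each role group and the defining subunits of each complex; a few others were added after their values were seen. The members, role groups and lists were chosen with earlier results of these data known. Alternatives were the t distribution, other thresholds, filters and standard errors, and centring on the median gene. The gene name table is of another assembly (GRCz12tu), so no coordinates and no sequences are printed. Python 3.11.15, numpy 2.4.6, scipy 1.17.1 and pandas 2.3.3 were used.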

Additional observations from a re-analysis of the deposited data

How the results depend on the processing

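The reference distribution mattered most. With a t distribution of 6 degrees of freedom in place of the normal one, 0 members were called in torpor against control, in torpor+radiation against control and in torpor+radiation against radiation, and 0 copies in torpor against control, with 0% to 0.0461% of all genes called in these comparisons. With the same distribution 13, 17, 9 and 7 had an unadjusted p under 0.05, an alternative chosen after seeing the data. The shares beside these counts were 11.7%, 14.8% and 15.5% of all genes and 12.9% of all genes with copies. At an adjusted p of 0.05, 5 of 34 members were called in torpor+radiation against radiation, beside 11.6% of all genes, and 4 of 22 copies in torpor against control, beside 7.83% of all genes with copies. In radiation against control 1 member had an unadjusted p under 0.05, beside 5% of all genes. Under the other alternatives the counts stayed within 1.5 times their main values. They were 10 to 16 in torpor against control, beside 6.62% to 20% of all genes in either direction. In torpor+radiation against control they were 12 to 20, beside 10% to 23.7%. The highest of these counts, 16 and 20, came with an unadjusted p under 0.05, as did the highest shares. In torpor+radiation against radiation they were 8 to 10, beside 10.4% to 22.8%, where centring and the filter at a baseMean of 50 each added 1 lower call. Of 39 calls of single genes, 31 were kept and 8 missed the threshold after centring, and none changed its sign.

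No paired analysis was possible because the tables hold no value per fish. For the same reason no fish could be left out in turn, and a single fish that decides a group mean would not be seen. With 2 control and 2 torpor fish, standard errors of members ran from 0.27 to 1.21 in torpor against control, and log2 fold changes of up to 0.95 were not called there.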

Other observations

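Among 23 copies of the partner genes, read in the torpor table only, 9 had a deposited adjusted p, and 3 of these were called higher and 0 lower in torpor against control by the deposited DESeq2 Wald test, beside 5.36% and 6.39% of all genes with copies. parla, a copy of the gene for the inner membrane rhomboid protease that cleaves pink1, had a log2 fold change of 1.27 (SE 0.32, adjusted p 0.0025). dnaja3b, a copy of the gene for a matrix J protein, had 1.15 (SE 0.45, adjusted p 0.0944), while dnaja3a was at 0.33 (SE 0.39) and was not called. dnajc11a, a copy of the gene for a J protein of the outer membrane that binds the cristae organizing complex, had 1.12 (SE 0.38, adjusted p 0.0486). As for all copies, reads may be split between near-identical genes.

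The chaperonin partner hspe1 had means of 495 normalized counts in torpor, 452 in torpor+radiation, 393 in radiation and 196 in control, so that its radiation mean was nearer to the torpor means than to the control mean. In radiation against control its log2 fold change was 1.01 (SE 0.50), with an adjusted p of 0.745 by the DESeq2 Wald test, and the difference was not called. immt, the core of the cristae organizing complex, had its torpor means below the others, with 1733 in torpor, 2047 in torpor+radiation, 2914 in radiation and 2575 in control, and was called in no comparison.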
